A study of Mus musculus with 52 samples.

Results

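ATOR-4066, an antibody that binds both CD40 and the tumor antigen CEACAM5, was compared with vehicle in 2 materials taken from mouse tumors, and the 2 effects were then compared with each other. All mice were hCD40tg, transgenic for human CD40, and bore tumors of MC38-CEACAM5, a colon carcinoma line that carries CEACAM5. The materials were CD45+Ly6G- cells sorted from tumors, with 3 ATOR-4066 and 4 vehicle libraries, and whole tumor, with 4 and 4. These 15 of the study's 52 libraries were chosen by their titles, and the whole-tumor ATOR-4066 library numbered 3 was left out by the same rule. The question was which genes responded differently in tumor leukocytes than in the tumor as a whole. It was measured per gene as the interaction, which is the log2 change in sorted cells minus the log2 change in whole tumor. The sources used here do not give dose, schedule, sampling time, age or the promoter of the transgene. Libraries are named by the number in their titles, and values are listed in that order (6, 7, 9 and 10 in sorted vehicle, 6, 9 and 10 in sorted ATOR-4066, and 1, 2, 4 and 5 in both tumor groups). No number occurs in both materials, and p-values measure only the spread between these libraries.

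CD40 is a receptor of dendritic cells, macrophages and B cells. Its engagement turns on NF-kappaB signalling, and the cells then display more antigen, carry more costimulatory molecules and secrete cytokines, which helps T cells to respond. RNA of a whole tumor mixes carcinoma cells, stroma, vessels and all leukocytes, whereas the sort keeps cells with CD45, the common leukocyte antigen, and drops those with Ly6G, a neutrophil antigen. In both materials fewer cells of a type and less RNA per cell cannot be told apart.

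Ptprc, which encodes CD45 (ENSMUSG00000026395, chromosome 1, 138062861 to 138175708, GRCm38), was at 1610, 1740, 1480 and 1770 CPM (counts relative to the size of the library) in sorted vehicle cells and at 1520, 1820 and 1760 CPM in sorted ATOR-4066 cells. In whole tumor it was at 272, 235, 172 and 168 CPM with vehicle and at 219, 347, 405 and 175 CPM with ATOR-4066. Every sorted library was above every tumor library, and the interaction was -0.39 ± 0.35 (SE, edgeR adjusted p = 0.48). Ly6g was too low to be tested and did not separate sorted cells from vehicle tumor. It had 2, 0, 0 and 3 counts in sorted vehicle cells, 1, 0 and 1 in sorted ATOR-4066 cells, 1 in each vehicle tumor, and 7, 9, 22 and 3 in ATOR-4066 tumor. Fibroblast and matrix genes had mean levels of 0.13 to 3.34 in sorted cells and 7.37 to 8.12 in tumor, on the scale of log2(CPM + 0.5) that is used for all gene list levels. Total counts per library were 30239584 to 47447679 in sorted cells and 47443780 to 60694297 in tumor.

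Single libraries stood apart in some gene lists. B cell markers were at 5.93 in sorted ATOR-4066 9 against 2.00 and 1.68 in the other 2, and at 4.03 in tumor vehicle 1 against 1.01 to 1.14. Erythroid markers were at 7.95 in sorted ATOR-4066 6 against 2.17 and 3.21. Type I interferon-induced genes were at 8.85 in tumor ATOR-4066 4 against 6.24 to 7.01. The tumor ATOR-4066 library that was left out had B cell markers at 8.24, where the other 4 had 1.21 to 2.64. For these lists the median interaction is given with and without the libraries that stood apart.

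Of 19349 genes tested, 2861 (14.8%) differed in their response between the materials at an adjusted p under 0.05 (edgeR quasi-likelihood F test, Benjamini-Hochberg adjustment over all genes). The interaction was positive for 1354 genes (7.0%) and negative for 1507 (7.79%). In sorted cells 3794 genes (19.6%) changed, 1919 higher (9.92%) and 1875 lower (9.69%). In whole tumor 1984 genes (10.3%) changed, 1164 higher (6.02%) and 820 lower (4.24%). The counts called in each gene list below are to be read against these shares of all genes. Of the 1354 genes with a positive interaction, 1189 had a positive fitted change in sorted cells and a negative one in tumor. Of the 1507 with a negative interaction, 1181 had the reverse. Selection by the difference favours opposite fitted signs, so these counts do not measure how many genes reversed. More genes with a called interaction were called in sorted cells alone than in tumor alone: among positive interactions, 706 against 275, and among negative ones 860 against 343. The order of the 2 materials depended on the fit, since sorted cells had 2114 calls against 4306 in tumor with voom, and 1776 against 3959 when each material was fitted alone.

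Far fewer genes were called in both materials. There were 348 genes (1.80%) called in the same direction, 9.17% of the sorted calls and 17.5% of the tumor calls, of which 234 were higher and 114 lower. Another 228 (1.18%) were called in opposite directions, 174 of them higher in sorted cells and lower in tumor, and 54 the reverse. The number of interaction calls depended strongly on scaling. Scaled on pan-leukocyte genes instead of on all genes, the same libraries gave 539 calls, 334 positive and 205 negative, so that 62.0% of calls were positive against 47.3% in the main fit. That scaling moved the median change of all genes from -0.01 to -0.27 in sorted cells and from 0.04 to -0.28 in tumor. With the left-out tumor library included there were 1499 interaction calls, and leaving out 1 library at a time gave between 1713 (without tumor vehicle 4) and 4115 (without sorted ATOR-4066 10).

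The interaction also ran differently in genes of the 2 compartments. The compartment of a gene was taken from libraries outside the contrast, 3 sorted and 5 tumor libraries of mice given CD40 mAb, an antibody against CD40. A gene was put in a compartment when the log2 ratio of its mean levels was at least 1. Of 2558 genes higher in sorted cells, 42 had a positive called interaction and 444 a negative one, 1.64% and 17.4% of the class. In whole tumor 370 of these genes rose and 25 fell, and in sorted cells 249 rose and 422 fell. Of 4129 genes higher in tumor, 449 had a positive interaction and 309 a negative one (10.9% and 7.48%). The remaining 12662 genes stood at 6.82% and 5.95%. With a log2 ratio of 2 the share of positive interactions among genes higher in sorted cells was 0.709% of 705 genes, against 20.7% negative. For genes higher in tumor that ratio turned the balance, with 183 positive and 212 negative of 1936 genes.

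**Figure D1:**
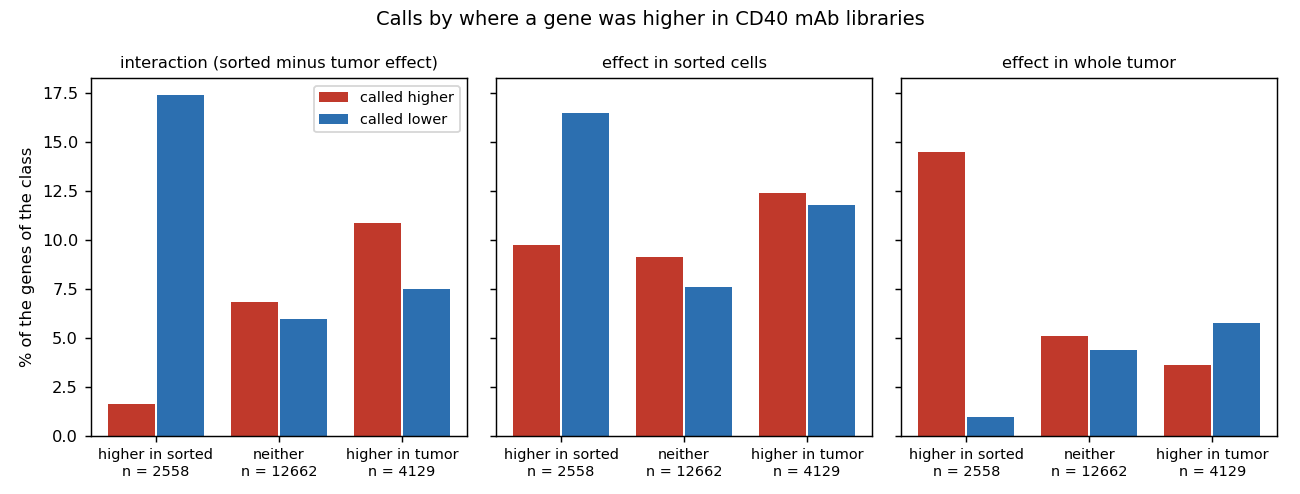
Percent of genes called higher (red) or lower (blue) for the interaction, the effect in sorted cells and the effect in whole tumor (y axis), by where the gene was higher in CD40 mAb libraries (x axis, with the number of genes). Genes higher in sorted cells have 17.4% negative and 1.64% positive interactions, and in whole tumor they were called higher in 14.5% and lower in 0.977%.

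Proliferation genes responded in opposite directions in the 2 materials. All 25 genes of this list had a positive called interaction, with a median of 2.52 where all genes tested had a median of -0.10. In sorted cells 24 of 25 rose, with a median log2 change of 1.61, and in whole tumor 12 of 25 fell, with a median of -0.93. The mean level of the list in sorted cells was 3.84 to 4.84 with vehicle and 5.01 to 6.34 with ATOR-4066. In whole tumor it was 6.60 to 6.92 with vehicle and 5.32 to 6.29 with ATOR-4066. The groups overlapped in neither material. T cell markers moved alongside in sorted cells, from 6.01 to 6.64 with vehicle to 7.47 to 8.65 with ATOR-4066, and their part in the result was not tested.

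Mki67, which encodes the proliferation antigen Ki-67 (ENSMUSG00000031004, chromosome 7, 135689784 to 135716361), was at 110, 82.3, 138 and 91.6 CPM in sorted vehicle cells and at 408, 492 and 184 CPM in sorted ATOR-4066 cells. In whole tumor it was at 249, 300, 287 and 277 CPM with vehicle and at 100, 96.1, 126 and 130 CPM with ATOR-4066. In both materials the groups were apart, in opposite order. The log2 change was 1.78 ± 0.26 (SE) in sorted cells and -1.30 ± 0.24 in tumor, and the interaction was 3.08 ± 0.36 (adjusted p = 0.000659, 95% interval 2.31 to 3.84).

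Rrm2 encodes a subunit of ribonucleotide reductase, which makes the building blocks of DNA (ENSMUSG00000020649, chromosome 12, 24708241 to 24714146). It was at 18.4, 12.3, 28.7 and 15.4 CPM in sorted vehicle cells and at 131, 145 and 52 CPM after ATOR-4066, and in tumor at 129, 136, 161 and 171 CPM against 82.1, 80, 64.8 and 89.5 CPM. No ATOR-4066 library overlapped the vehicle libraries of its material. The interaction was 3.46 ± 0.42 (adjusted p = 0.000854), with a change of 2.54 ± 0.31 in sorted cells and of -0.92 ± 0.28 in tumor, the latter not called (adjusted p = 0.0566).

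The mitotic kinase gene Plk1 (ENSMUSG00000030867, chromosome 7, 122159439 to 122169873) was called in both materials in opposite directions. Its levels were 12.4, 5.08, 12 and 8.21 CPM in sorted vehicle cells, 33.7, 45.2 and 17.7 CPM in sorted ATOR-4066 cells, 86.2, 89.7, 105 and 110 CPM in vehicle tumor and 20.4, 22.4, 39 and 59.1 CPM in ATOR-4066 tumor. Vehicle and ATOR-4066 libraries were apart in each material, by 1.77 ± 0.39 (SE) on the log2 scale in sorted cells and by -1.47 ± 0.35 in tumor. Cdc20, an activator of the anaphase-promoting complex, was called in opposite directions too, as was Pclaf, a partner of the replication clamp PCNA that is not on the list. Their interactions were 2.82 ± 0.59 and 3.91 ± 0.50. For Cdc20, sorted ATOR-4066 10 at 13.2 CPM lay within the vehicle range of 5.32 to 16.4 CPM. Kif11, a motor of the mitotic spindle, had an interaction of 3.36 ± 0.43, and Cenpf, a kinetochore protein, of 3.10 ± 0.40. These 7 genes were called in each of 23 alternative analyses. In the CD40 mAb libraries Mki67 was in neither compartment, and the rest of them were higher in tumor than in sorted cells. Whether the 2 directions describe the same cells was not tested.

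All 25 proliferation genes were also called without each library in turn, and 24 with the left-out tumor library included. Scaled on pan-leukocyte genes, 17 were called, with a median interaction of 2.49. The fall in tumor depended more on the libraries used: 3 genes fell without tumor vehicle 4, without tumor vehicle 5 or without tumor ATOR-4066 2, 4 without tumor ATOR-4066 1, and 22 when tumor libraries were fitted alone. With the CD40 mAb libraries in the fit none fell in tumor, and with the left-out library 2 did. In sorted cells 13 rose with pan-leukocyte scaling and 15 with voom. Promoters of the list were searched on both strands for the E2F motif TTTNNCGC, with overlapping matches allowed. E2F factors bind such sites in genes of the cell cycle. Of 25 members 22 had an entry in the RefSeq promoter table (GRCm38.p6, 250 bases before to 50 after the start). Of these, 5 (22.7%) held a match, against 5.17% of all 32851 promoters of the table. The windows of Mki67, Rrm2, Plk1, Cdc20, Kif11 and Cenpf held none.

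**Figure D2:**
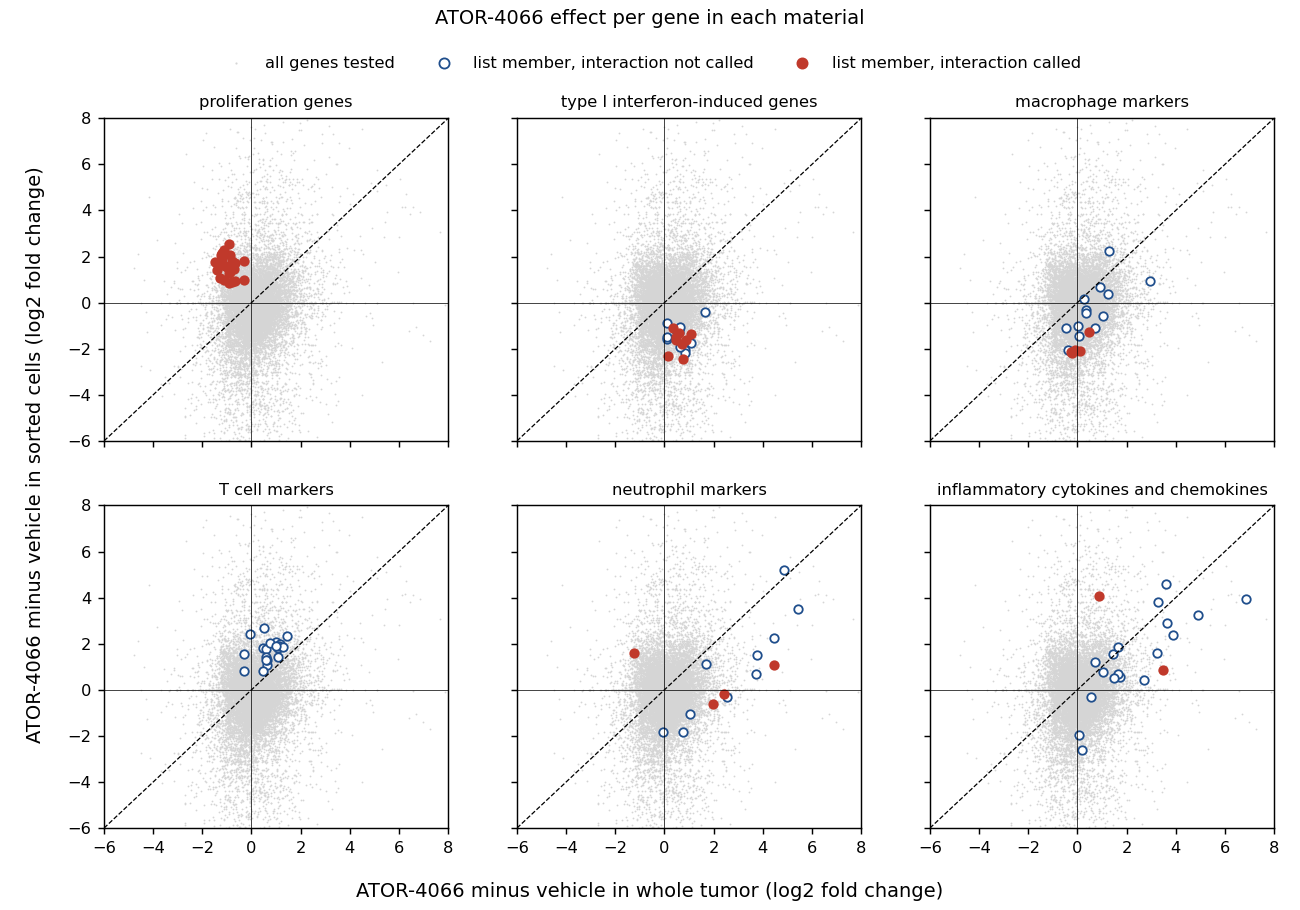
Log2 change with ATOR-4066 in whole tumor (x axis) and in sorted cells (y axis) for all 19349 genes (grey, a few lie outside the axes) and the members of 6 gene lists (red, interaction called; open blue, not called). The dashed line marks equal effects; all 25 proliferation genes lie above it to the left of 0, and the 22 type I interferon-induced genes lie below it.

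Type I interferon-induced genes went the other way. Of 22 genes, 9 had a negative called interaction and none a positive one, 40.9% where 14.8% of all genes were called. The fitted interaction was below 0 for all 22, with a median of -2.09. In sorted cells 9 fell and none rose (median -1.54). In whole tumor none of the 22 was called in the edgeR test (median 0.62), 1 had an unadjusted p under 0.05, and DESeq2 and voom called none. The level of the list was 8.24 to 8.71 in sorted vehicle cells and 6.83, 5.69 and 7.81 in sorted ATOR-4066 cells, all 3 below the vehicle range. In tumor it was 6.87 to 7.03 with vehicle and 6.60, 6.24, 8.85 and 7.01 with ATOR-4066, so that tumor ATOR-4066 4 stood above all others and 2 libraries below.

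Stat2 encodes a transcription factor of the complex that carries the type I interferon signal (ENSMUSG00000040033, chromosome 10, 128270559 to 128292849). It was at 822, 599, 915 and 906 CPM in sorted vehicle cells and at 209, 137 and 434 CPM in sorted ATOR-4066 cells, with no overlap. Tumor libraries stood at 204, 226, 199 and 180 CPM with vehicle and at 219, 173, 554 and 184 CPM with ATOR-4066, where library 4 was far above the vehicle range and library 2 just below it. The change was -1.64 ± 0.40 (SE, adjusted p = 0.0164) in sorted cells and 0.48 ± 0.37 (adjusted p = 0.472) in tumor, and the interaction was -2.12 ± 0.55 (adjusted p = 0.0238).

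Oas3, an enzyme that activates RNase L against viral RNA (ENSMUSG00000032661, chromosome 5, 120753098 to 120777661), was at 644, 530, 654 and 568 CPM in sorted vehicle cells and at 209, 156 and 366 CPM after ATOR-4066. Tumor libraries had it at 120, 112, 105 and 106 CPM against 119, 92.3, 363 and 104 CPM. Again all sorted ATOR-4066 libraries were below all vehicle libraries, and in tumor library 4 alone was above the vehicle range. The interaction was -1.91 ± 0.55 (adjusted p = 0.0344). Mx1 and Mx2, genes of a family of interferon-induced GTPases, had interactions of -3.21 ± 0.91 and -2.53 ± 0.68. The annotation used here lists Mx2 as a polymorphic pseudogene. With 1 library left out the Mx1 interaction lay between -3.62 and -1.64. Gbp5, a GTPase induced by interferon-gamma, had an interaction of -1.94 ± 0.53. It was the only called member of the 22 interferon-gamma-induced genes (median -0.93), 4.55% where 14.8% of all genes were called. Gbp5 lost its call in 10 of 23 alternatives, among them without sorted ATOR-4066 6 or 9, sorted vehicle 10, tumor ATOR-4066 4, or tumor vehicle 4 or 5 (adjusted p up to 0.0876).

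This pattern depended on which libraries were used. Without tumor ATOR-4066 4 the median interaction was -1.33, 4 genes were called, and the median change in tumor was -0.27, while 18 genes fell in sorted cells. Interaction calls numbered 0 without tumor vehicle 5, 1 without sorted ATOR-4066 6, without sorted ATOR-4066 9 or without sorted vehicle 10, and 2 without sorted vehicle 6 or 9 or without tumor vehicle 1, 2 or 4. They rose to 18 without sorted ATOR-4066 10, 13 without tumor ATOR-4066 2 and 15 with DESeq2. Scaled on pan-leukocyte genes none was called, with a median of -1.82, and with the left-out tumor library none was called, with a median of -1.88. The fall in sorted cells was called for none of the genes without sorted ATOR-4066 6 and for 1 without sorted ATOR-4066 9. The median interaction was below 0 in each of the 23 alternatives. Stat2 kept its call in 17 of 23 alternatives, Mx2 in 18, Mx1 in 9 and Oas3 in 8.

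Promoters of 2 of these genes are shown because interferon acts through a promoter element, the interferon-stimulated response element (ISRE). Sequences are RefSeq windows of GRCm38.p6, read 5′ to 3′ on the strand of the gene, with matches to the core GAAANNGAA on either strand in capitals. The Oas3 window is chr5:120777610-120777909 (minus strand) and the Stat2 window is chr10:128270248-128270547 (plus strand).
Oas3: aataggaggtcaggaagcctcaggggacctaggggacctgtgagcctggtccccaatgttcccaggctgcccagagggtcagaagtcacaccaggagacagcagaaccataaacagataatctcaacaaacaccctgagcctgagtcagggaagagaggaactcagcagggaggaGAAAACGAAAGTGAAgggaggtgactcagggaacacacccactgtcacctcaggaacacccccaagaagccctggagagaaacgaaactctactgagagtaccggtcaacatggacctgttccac
Stat2: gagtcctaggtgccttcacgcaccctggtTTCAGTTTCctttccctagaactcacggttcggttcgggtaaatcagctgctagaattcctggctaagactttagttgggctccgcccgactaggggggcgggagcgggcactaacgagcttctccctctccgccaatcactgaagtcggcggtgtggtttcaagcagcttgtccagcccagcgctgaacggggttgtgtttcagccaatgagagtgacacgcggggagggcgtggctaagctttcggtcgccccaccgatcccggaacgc
Of the 22 genes, 15 had an entry in the table and 10 of these (66.7%) held a match, against 8.56% of all promoters. Mx1 and Mx2 had no entry. A match describes the letters of the window only.

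**Figure D3:**
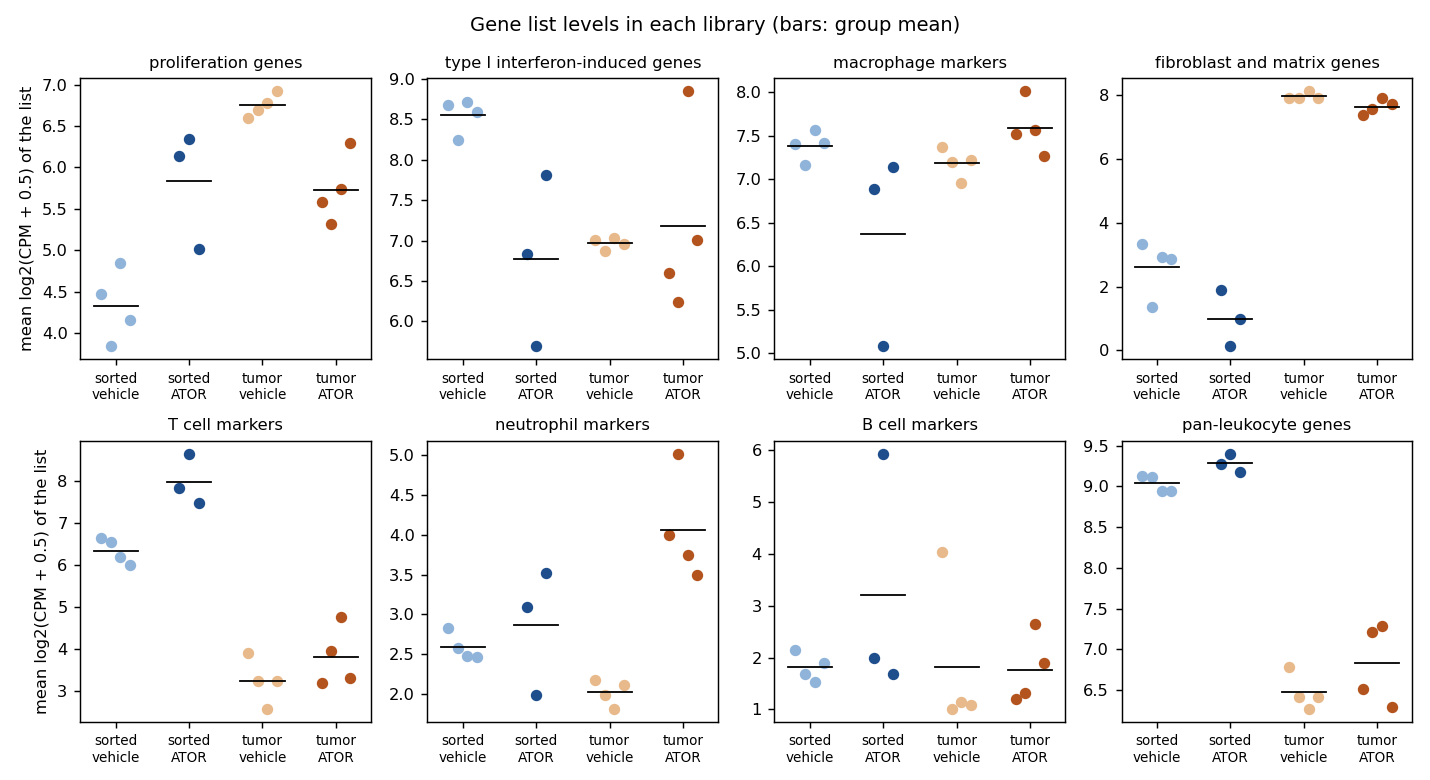
Mean level of 8 gene lists in each of the 15 libraries, as mean log2(CPM + 0.5) of the members (y axis, a scale of its own in each panel), by material and treatment (x axis); bars are group means. Proliferation genes rise in sorted cells and fall in tumor, tumor ATOR-4066 4 stands at 8.85 for type I interferon-induced genes, and sorted ATOR-4066 9 stands at 5.93 for B cell markers.

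Some macrophage markers fell in sorted cells, and the list differed in sign between the materials. Of 18 markers, 5 had a negative called interaction and none a positive one (median -1.57), 27.8% where 14.8% of all genes were called. In sorted cells 6 fell and 1 rose (median -1.07), and in tumor 2 rose and none fell (median 0.32, and -0.10 with pan-leukocyte scaling). The list level was 7.16 to 7.56 in sorted vehicle cells and 6.89, 5.08 and 7.14 in sorted ATOR-4066 cells, with library 9 far below the other 2. In tumor it was 6.96 to 7.37 with vehicle and 7.26 to 8.01 with ATOR-4066. Without sorted ATOR-4066 9 the median interaction was -1.10 and 7 markers were called. Only 1 was called without sorted vehicle 10, without tumor ATOR-4066 4 or without any 1 of the 4 tumor vehicle libraries, 2 without sorted vehicle 9 or tumor ATOR-4066 2, 3 without sorted ATOR-4066 6 or sorted vehicle 6, and none with pan-leukocyte scaling. Without sorted ATOR-4066 10 there were 9.

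Trem2, a lipid-sensing receptor of macrophages (ENSMUSG00000023992, chromosome 17, 48346401 to 48354147), was at 108, 88.2, 161 and 127 CPM in sorted vehicle cells and at 36.1, 10 and 39.3 CPM after ATOR-4066. The whole tumors stood at 63.6, 48.1, 52.3 and 56 CPM with vehicle and at 59.6, 90.7, 34.8 and 51.5 CPM with ATOR-4066. The sorted groups did not overlap, and the tumor groups did. The change was -2.09 ± 0.38 (SE, adjusted p = 0.00379) in sorted cells and 0.10 ± 0.35 (adjusted p = 0.899) in tumor, and the interaction of -2.19 ± 0.52 (adjusted p = 0.016) lost its call in 1 of 23 alternatives, the pan-leukocyte scaling (adjusted p = 0.0644, range over all alternatives 0.00891 to 0.0644).

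The complement genes C1qa and C1qb, made by tissue macrophages, had interactions of -1.98 ± 0.56 and -1.97 ± 0.56. In sorted cells C1qa was at 679 to 1240 CPM with vehicle and at 315, 57.2 and 278 CPM with ATOR-4066. The whole tumors had it at 702 to 889 CPM and at 531, 630, 985 and 656 CPM. C1qa kept its call in 11 of 23 alternatives and C1qb in 10. Mertk, a receptor for the uptake of dying cells, had an interaction of -1.76 ± 0.51 and kept its call in 9. All 3 lost the call without any 1 of the 4 tumor vehicle libraries, and with pan-leukocyte scaling.

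Mouse Cd40, the gene of the endogenous receptor (ENSMUSG00000017652, chromosome 2, 165055627 to 165072948), was at 129, 127, 168 and 165 CPM in sorted vehicle cells and at 96.6, 30.3 and 98.5 CPM in sorted ATOR-4066 cells. In tumor it was at 39.8, 38.4, 31.5 and 32.5 CPM with vehicle and at 40.3, 56.1, 146 and 53.2 CPM with ATOR-4066. All sorted ATOR-4066 libraries were below vehicle and all tumor ATOR-4066 libraries above it, tumor library 4 most of all. Neither change was called by itself (-0.97 ± 0.41, adjusted p = 0.119, and 1.05 ± 0.38, adjusted p = 0.0987), whereas their difference was (-2.02 ± 0.56, adjusted p = 0.0307). That call ended without sorted ATOR-4066 9, sorted vehicle 9 or 10, or tumor vehicle 4 or 5 (adjusted p up to 0.0614), and without the low-count filter, with pan-leukocyte scaling or with the replicate number as a block (up to 0.0767). The human CD40 transgene was not analysed here. Cd86, a costimulatory ligand for CD28, had an interaction of -1.37 ± 0.41 and kept its call in 9 of 23 alternatives. These 2 genes were the called members of the 18 dendritic cell maturation genes, 11.1% where 14.8% of all genes were called. Of the 18 genes, 5 rose in tumor and 3 in sorted cells.

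Markers of plasmacytoid dendritic cells, the main producers of type I interferon, had 4 of 10 members with a negative called interaction and a median of -1.21. These 4 were 40.0% of the list, where 14.8% of all genes were called. In sorted cells 5 fell and 1 rose. Siglech, a surface lectin of these cells, was at 29.9, 15.8, 30.8 and 34.8 CPM in sorted vehicle cells and at 12.8, 9.45 and 4.89 CPM after ATOR-4066, with an interaction of -2.15 ± 0.58. That call ended in 8 of 23 alternatives, among them without sorted ATOR-4066 9, sorted vehicle 10, tumor ATOR-4066 4, or tumor vehicle 4 or 5 (adjusted p up to 0.144). Tcf4, the transcription factor that sets their identity, had an interaction of -0.98 ± 0.21 (adjusted p = 0.00972), and its call ended with pan-leukocyte scaling (adjusted p = 0.179). Cox6a2, a subunit of cytochrome c oxidase that muscle also expresses, was called in opposite directions. It was at 4.56, 3.69, 2.14 and 5.62 CPM in sorted vehicle cells and at 2.37, 0.837 and 0.948 CPM after ATOR-4066, where library 6 lay within the vehicle range. Tumor libraries had it at 7.65 to 10.8 CPM with vehicle and at 31.7, 15.1, 19.8 and 40.3 CPM with ATOR-4066, all above vehicle. In the CD40 mAb libraries Cox6a2 was higher in tumor than in sorted cells, Siglech was higher in sorted cells, and Tcf4 was in neither compartment. Irf8, a factor of dendritic cells and monocytes, had an interaction of -1.41 ± 0.39. It was the only called member of the 15 conventional dendritic cell markers (median -0.41), 6.67% where 14.8% of all genes were called. Irf8 lost its call in 7 of 23 alternatives, among them without sorted ATOR-4066 6 or 9 or tumor vehicle 4 or 5, and Cox6a2 with the left-out tumor library (adjusted p = 0.0676).

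**Figure D4:**
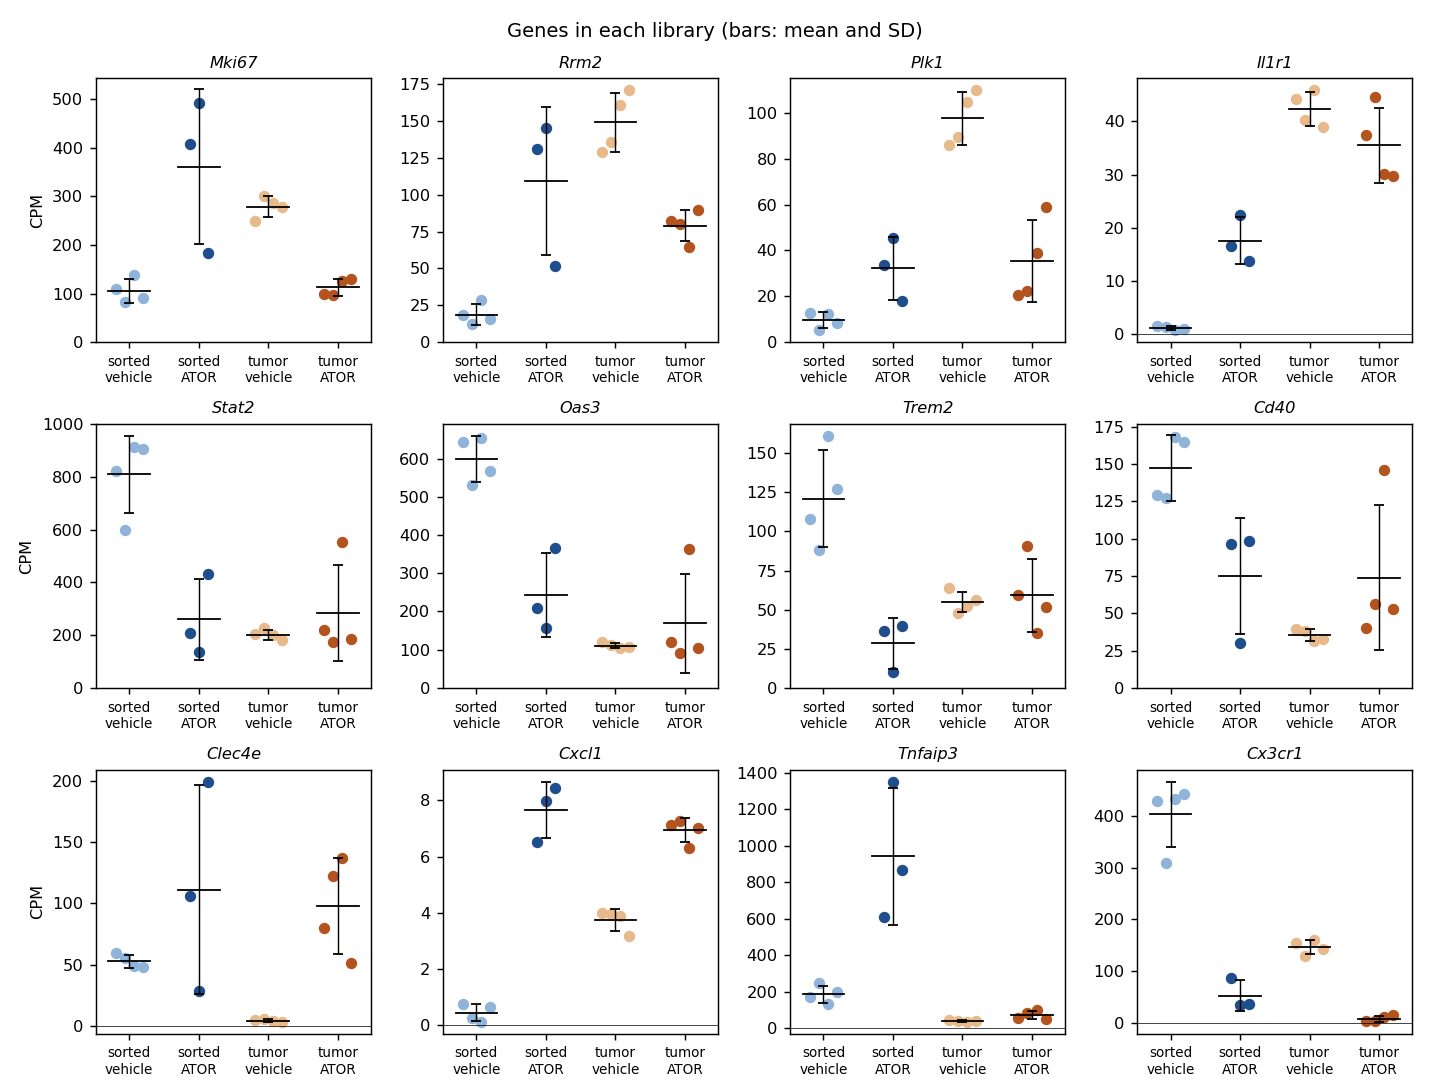
CPM of 12 genes in each library (y axis, a scale of its own in each panel), by material and treatment (x axis); horizontal bars are group means and error bars the SD. Mki67 and Plk1 move in opposite directions in the 2 materials, Stat2, Oas3 and Trem2 fall in sorted cells, and Cx3cr1 falls in both.

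Most neutrophil markers rose in whole tumor. Of 17 neutrophil markers 14 could be tested, and in tumor 10 rose and 1 fell, with a median of 2.49, whereas in sorted cells 3 rose and none fell (median 0.89). Their level in tumor was 1.81 to 2.18 with vehicle and 3.50 to 5.02 with ATOR-4066, with no overlap. In sorted cells it was 2.46 to 2.83 with vehicle and 3.09, 1.98 and 3.52 with ATOR-4066. The median interaction was -2.20, with 3 members called lower and 1 higher, 28.6% of those tested where 14.8% of all genes were called. The 3 members called lower (Clec4e, Trem1 and Acod1) were all higher in sorted cells than in tumor in the CD40 mAb libraries.

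Clec4e, a receptor for mycobacterial and damage signals (ENSMUSG00000030142, chromosome 6, 123281789 to 123289870), was at 4.76, 5.53, 4.12 and 3.45 CPM in vehicle tumor and at 79.9, 122, 137 and 51.2 CPM in ATOR-4066 tumor. In sorted cells it was at 59.4, 55.1, 49.1 and 48.1 CPM with vehicle and at 106, 28.9 and 199 CPM with ATOR-4066. The tumor groups were far apart, and in sorted cells 2 libraries were above the vehicle range and library 9 below it. The change was 4.45 ± 0.42 (SE) in tumor and 1.08 ± 0.45 in sorted cells, and the interaction was -3.37 ± 0.62 (adjusted p = 0.00505), called in all 23 alternatives. Trem1, an amplifier of inflammatory signals, had an interaction of -2.60 ± 0.62 and rose in tumor by 1.97 ± 0.42. Acod1, the enzyme that makes itaconate in activated macrophages, had an interaction of -2.62 ± 0.67 and rose in tumor by 2.43 ± 0.46. Trem1 lost its interaction call with pan-leukocyte scaling, and Acod1 in 6 of 23 alternatives, among them without sorted ATOR-4066 6.

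Mmp9, a matrix metalloprotease (ENSMUSG00000017737, chromosome 2, 164940780 to 164955850), was the only member with a called positive interaction, 2.83 ± 0.54 (adjusted p = 0.00514). It was at 10, 5.39, 8.12 and 10.3 CPM in sorted vehicle cells and at 17.6, 35.1 and 24.8 CPM after ATOR-4066. The whole tumors stood at 308, 257, 356 and 341 CPM against 82.5, 279, 102 and 76.2 CPM. It rose in sorted cells and fell in tumor, where ATOR-4066 library 2 stayed within the vehicle range.

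Among 20 inflammatory cytokines and chemokines tested, 9 rose and 2 fell in sorted cells (median 1.37), and 11 rose in tumor (median 1.70). The interaction was called for 2 of them, in opposite directions, a smaller share than the 14.8% called among all genes. Cxcl1, a neutrophil-recruiting chemokine (ENSMUSG00000029380, chromosome 5, 90891241 to 90893115), was at 0.772, 0.243, 0.127 and 0.634 CPM in sorted vehicle cells and at 6.53, 7.99 and 8.44 CPM after ATOR-4066. The whole tumors had it at 3.99, 3.95, 3.89 and 3.17 CPM with vehicle and at 7.13, 7.28, 6.31 and 7.01 CPM with ATOR-4066. ATOR-4066 libraries were above vehicle in both materials, by 4.08 ± 0.41 (SE) in sorted cells and, uncalled, by 0.89 ± 0.36 in tumor, and the interaction was 3.20 ± 0.54 (adjusted p = 0.00285). Il1rn, the interleukin-1 receptor antagonist, rose in tumor from 29.5 to 37.2 CPM with vehicle to 227, 337, 756 and 178 CPM. In sorted cells it was at 216, 197, 155 and 163 CPM with vehicle and at 270, 69.6 and 653 CPM with ATOR-4066, on both sides of the vehicle range. Its interaction was -2.63 ± 0.76 (adjusted p = 0.0372) and kept the call in 9 of 23 alternatives.

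A pair of feedback inhibitors of NF-kappaB rose in both materials, with positive interactions that some alternatives did not call. Tnfaip3, which encodes the ubiquitin-editing enzyme A20 (ENSMUSG00000019850, chromosome 10, 19000910 to 19015657), was at 169, 245, 135 and 198 CPM in sorted vehicle cells and at 612, 1350 and 866 CPM after ATOR-4066. In tumor it was at 44, 41.5, 35 and 36.8 CPM against 56.1, 82.9, 100 and 50.2 CPM. ATOR-4066 libraries were above vehicle throughout. The change was 2.34 ± 0.28 (SE) in sorted cells and 0.88 ± 0.26 in tumor, and the interaction was 1.46 ± 0.38 (adjusted p = 0.0228). It was lost without sorted ATOR-4066 9 (adjusted p = 0.061) and with the CD40 mAb libraries in the fit (adjusted p = 0.0642).

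Nfkbia, the inhibitor that holds NF-kappaB in the cytoplasm, was at 143 to 185 CPM in sorted vehicle cells and at 449, 537 and 629 CPM after ATOR-4066. Tumor libraries had it at 100 to 111 CPM and at 199, 244, 216 and 164 CPM. Groups did not overlap in either material, and the interaction was 0.77 ± 0.20 (adjusted p = 0.0231). For Nfkbia that call ended with the CD40 mAb libraries in the fit, with pan-leukocyte scaling and with the replicate number as a block (adjusted p up to 0.104). Nfkbib, a related inhibitor, rose in tumor alone, by 0.71 ± 0.09 (SE) against 0.15 ± 0.09 in sorted cells, and its interaction of -0.56 ± 0.13 lost its call with pan-leukocyte scaling and with the block. Of the 15 NF-kappaB subunits and feedback genes, 4 rose in sorted cells and 7 in tumor, and 3 had a positive and 2 a negative called interaction (median -0.27). Called interactions made up 33.3% of the list, where 14.8% of all genes were called. The windows of Nfkbia (chr12:55492598-55492897, minus strand) and Tnfaip3 (chr10:19015361-19015660, minus strand) are shown because NF-kappaB acts on its own inhibitors through kappaB sites, with matches to the core GGGNNTTTC on either strand in capitals.
Nfkbia: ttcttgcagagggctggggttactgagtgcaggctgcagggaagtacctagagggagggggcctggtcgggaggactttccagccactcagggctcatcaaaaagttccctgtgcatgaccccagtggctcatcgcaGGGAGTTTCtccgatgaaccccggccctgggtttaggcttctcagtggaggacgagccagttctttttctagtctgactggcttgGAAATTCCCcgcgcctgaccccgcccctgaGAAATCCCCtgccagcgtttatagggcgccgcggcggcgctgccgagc
Tnfaip3: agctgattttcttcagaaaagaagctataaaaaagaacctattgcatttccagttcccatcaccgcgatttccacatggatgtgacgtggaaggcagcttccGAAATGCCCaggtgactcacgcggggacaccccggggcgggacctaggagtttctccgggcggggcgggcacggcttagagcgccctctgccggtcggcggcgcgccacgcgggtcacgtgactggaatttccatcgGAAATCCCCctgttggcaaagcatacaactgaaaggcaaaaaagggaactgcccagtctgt
Of 15 members 12 had an entry in the table and 5 of these (41.7%) held a match, against 4.36% of all promoters.

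Immediate early genes, which cells switch on within minutes of a stimulus, were split. Egr1 (ENSMUSG00000038418, chromosome 18, 34859823 to 34864984), a zinc finger transcription factor, was at 84.7, 137, 57.7 and 138 CPM in sorted vehicle cells and at 274, 519 and 245 CPM after ATOR-4066. The whole tumors stood at 34.1, 33.1, 31.7 and 26.2 CPM against 26.2, 38.3, 22.6 and 17.5 CPM. It rose in sorted cells with no overlap, while the tumor groups overlapped, and the interaction was 1.99 ± 0.45 (adjusted p = 0.0115, called in all 23 alternatives). Egr3, a relative of Egr1, had an interaction of 1.81 ± 0.45. Atf3, a stress-induced transcription factor, had the opposite sign with -1.96 ± 0.46. It was at 110 to 188 CPM in sorted vehicle cells and at 159, 77.2 and 248 CPM after ATOR-4066, and in tumor at 17.8 to 24.2 CPM and at 96, 105, 105 and 49.8 CPM. Hspa1a, an inducible heat shock protein, had an interaction of -3.32 ± 0.85. Hspa1a lost its call in 7 of 23 alternatives, among them without sorted ATOR-4066 9 or tumor vehicle 4 or 5, Egr3 in 4, among them without sorted ATOR-4066 9, and Atf3 in 2. Of the 18 genes of this list, 9 rose in sorted cells and 6 in tumor, and the median interaction was 0.01.

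Some genes moved the same way in both materials. Cx3cr1, the fractalkine receptor of monocytes and macrophages (ENSMUSG00000052336, chromosome 9, 119901616 to 120069879), was at 429, 310, 432 and 442 CPM in sorted vehicle cells and at 86.9, 34.2 and 36.1 CPM after ATOR-4066. The whole tumors had it at 154, 129, 160 and 142 CPM against 3.75, 2.95, 10.8 and 15.6 CPM. ATOR-4066 libraries lay below vehicle in both materials, with changes of -2.94 ± 0.46 (SE) and -4.14 ± 0.43, and the interaction had a 95% interval of -0.16 to 2.55. Xcr1, the chemokine receptor of cross-presenting dendritic cells, fell by 2.88 on the log2 scale in both materials (SE 0.48 and 0.45, interval of the difference -1.42 to 1.40). Siglece, an inhibitory sialic acid receptor of myeloid cells, fell by 2.78 ± 0.43 in sorted cells and by 2.97 ± 0.40 in tumor (interval -1.08 to 1.45). Cx3cr1 and Siglece kept both calls in all 24 alternatives, and Xcr1 lost its tumor call with the left-out tumor library (adjusted p = 0.101).

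Kcnj10, a potassium channel, and Cdh26, a cadherin, also fell in both materials. For Kcnj10 the changes were -4.03 ± 0.78 (SE) and -3.64 ± 0.72, and for Cdh26 -3.24 ± 0.88 and -3.51 ± 0.53. Genes that rose in both included S100a8, a subunit of calprotectin made by neutrophils and monocytes. It was at 0 to 0.0764 CPM in sorted vehicle cells and at 2.98, 0.243 and 1.5 CPM after ATOR-4066, and in tumor at 0.261 to 0.564 CPM and at 14.4, 33.3, 2.06 and 4.94 CPM. Serpinb2, a protease inhibitor of activated macrophages, rose by 4.27 ± 0.91 and 4.0 ± 0.64, and Ermn, a cytoskeletal protein known from oligodendrocytes, by 5.77 ± 0.79 and 5.12 ± 1.09. The chemokine gene Cxcl3 rose by 3.95 ± 1.01 in sorted cells and by 6.86 ± 1.04 in tumor, and the interval of its difference was -6.01 to 0.19. These intervals are wide and do not show that the effects were equal. In sorted cells the S100a8 call ended with voom and with the replicate number as a block (adjusted p up to 0.375), and the Serpinb2 call with voom. Cxcl3 and Cdh26 kept their sorted calls in 20 of 24 alternatives. For Kcnj10 both calls ended with the CD40 mAb libraries in the fit, and the tumor call also with the left-out tumor library. Ermn kept both calls in all 24.

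T cell markers rose in sorted cells, yet their response was not shown to differ from that of whole tumor. In sorted cells 17 of 20 rose (median 1.83), and in tumor 1 of 20 rose (median 0.64). The fitted interaction was above 0 for all 20 (median 0.87), but edgeR called 0 of them, 7 had an unadjusted p under 0.05, DESeq2 called 2 and voom 0. Cd3e, part of the CD3 signalling unit of T cells (ENSMUSG00000032093, chromosome 9, 44998740 to 45009627), was at 111, 85.2, 80.5 and 74.6 CPM in sorted vehicle cells and at 268, 483 and 185 CPM after ATOR-4066. In tumor it was at 14.5, 8.95, 5.19 and 10.4 CPM against 7.84, 14.7, 23.2 and 8.27 CPM. The sorted groups were apart and the tumor groups overlapped, and the interaction was 1.36 ± 0.55 (adjusted p = 0.108, 95% interval 0.18 to 2.55).

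Bcl11b, a transcription factor of the T cell lineage, and Cd8b1, a chain of the CD8 coreceptor, had the smallest p of the list, with interactions of 2.18 ± 0.71 (adjusted p = 0.0536) and 2.46 ± 0.80 (adjusted p = 0.0538). For Cd8a, the other CD8 chain, the interaction was 1.86 ± 0.76 (adjusted p = 0.109). In tumor, T cell marker levels were 2.58 to 3.92 with vehicle and 3.21 to 4.78 with ATOR-4066, tumor ATOR-4066 4 being the highest. Without that library 4 markers were called, with a median of 1.32, and without sorted ATOR-4066 10 there were 3 calls. With the left-out tumor library included, the median interaction was 0.05. The rise in sorted cells was called for 9 markers without sorted ATOR-4066 9, for 11 without sorted vehicle 10, for 3 with the left-out tumor library in the fit, for 2 with the CD40 mAb libraries in it and for 6 with the replicate number as a block.

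Among NK cell markers the interaction was below 0 for all 11 members (median -0.66, and -0.22 without tumor ATOR-4066 4), and edgeR called none, with 4 at an unadjusted p under 0.05, 2 called by DESeq2 and none by voom. Gzma, a granule protease of NK and T cells, had an interaction of -1.51 ± 0.54 (adjusted p = 0.0773), between -1.7 and -0.8 with 1 library left out. Havcr2, the checkpoint receptor TIM-3, had the only call among 13 checkpoint and exhaustion genes, -1.14 ± 0.31 (7.69% of the list, against 14.8% of all genes). Its levels were 171 to 240 CPM in sorted vehicle cells and 115, 189 and 252 CPM in sorted ATOR-4066 cells. They were 28.8 to 41.2 CPM in vehicle tumor and 56.4 to 74.2 CPM in ATOR-4066 tumor. Havcr2 lost its call in 7 of 23 alternatives, among them without sorted ATOR-4066 9 or tumor vehicle 4 or 5 (adjusted p up to 0.267). B cell and erythroid markers had the highest median interactions, 4.24 and 3.55, and each rested on few libraries. Without sorted ATOR-4066 9 the B cell median was 0.54, without tumor vehicle 1 it was 1.5, with the left-out tumor library it was -0.61, and without sorted ATOR-4066 6 the erythroid median was -0.79. B cell markers had 0 calls in edgeR, 10 members at an unadjusted p under 0.05, and 1 call in DESeq2, and voom called none. Of 7 erythroid markers tested, 1 had a positive called interaction in edgeR, 14.3% where 14.8% of all genes were called.

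**Figure D5:**
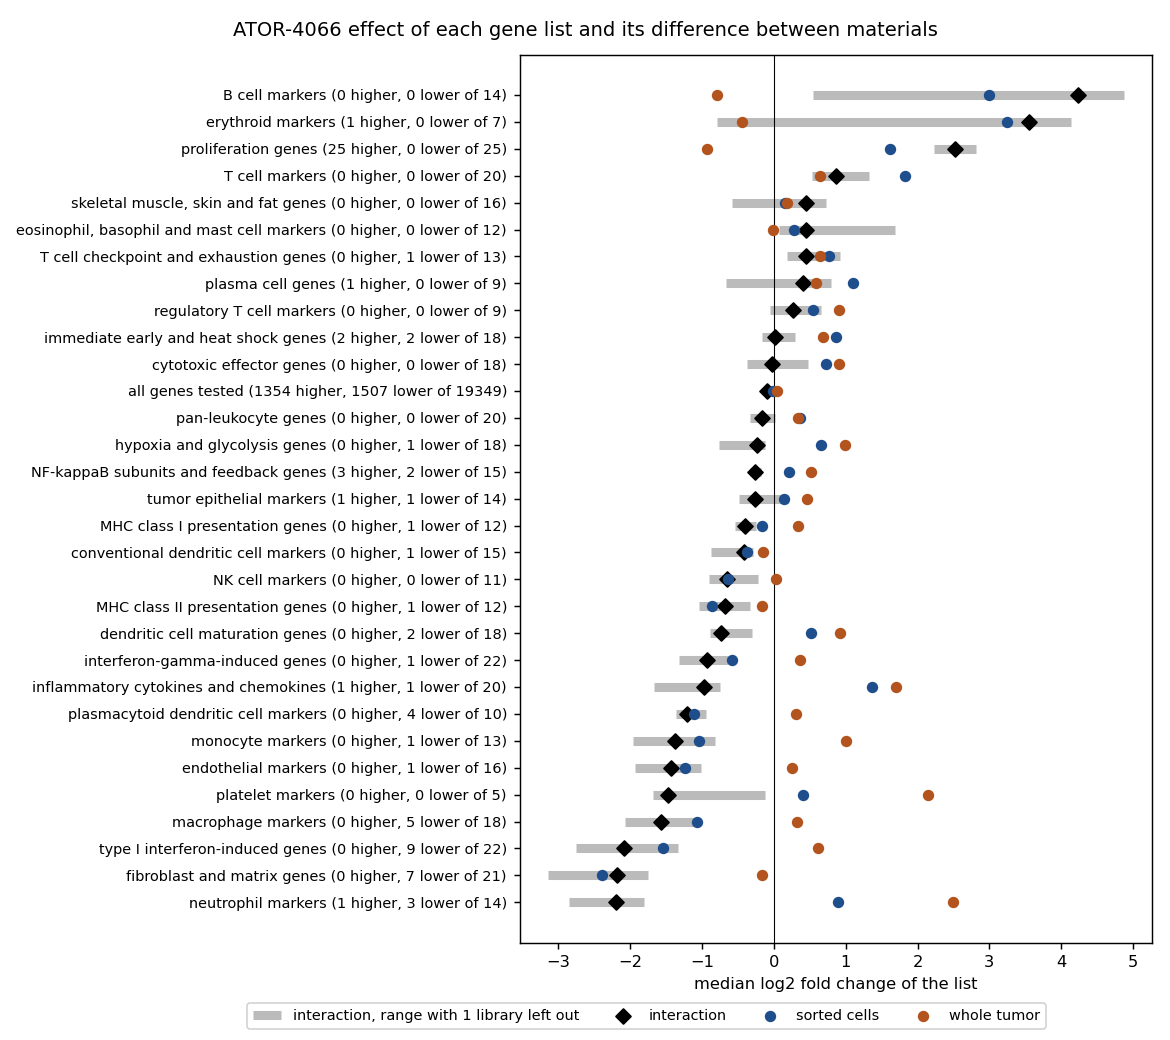
Median log2 change of each gene list with ATOR-4066 in sorted cells (blue) and whole tumor (orange), and median interaction (black diamonds) with its range when 1 library is left out (grey bars), on the x axis; list names give the interaction calls in each direction. Proliferation genes stand at 2.52 with a range of 2.23 to 2.82, while the grey bar of erythroid markers crosses 0.

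Several other genes that were low in sorted vehicle cells rose there without a change called in tumor. The mean log2 CPM level of tumor epithelial markers was higher in the same sorted ATOR-4066 libraries. It was 1.41, 1.47 and 1.7 against 1.08 to 1.22 with vehicle, without overlap. The members were split, with 7 fitted changes above 0 and 7 below (median 0.14). Of these 14 markers 4 were called higher, and their part in these results was not tested. Il1r1, the signalling receptor of interleukin-1 (ENSMUSG00000026072, chromosome 1, 40225080 to 40317257), was at 1.64, 1.29, 0.789 and 1.09 CPM in sorted vehicle cells and at 16.5, 22.4 and 13.8 CPM after ATOR-4066. Tumor libraries had it at 44.2, 40.3, 45.8 and 39 CPM with vehicle and at 37.4, 44.6, 30.1 and 29.8 CPM with ATOR-4066. The sorted libraries were far apart by treatment while the tumor libraries overlapped, and the interaction was 4.12 ± 0.30 (SE, adjusted p = 2.84e-05, 95% interval 3.47 to 4.77). Sdc1, the proteoglycan syndecan-1 of epithelia and plasma cells (ENSMUSG00000020592, chromosome 12, 8771323 to 8793715), rose in sorted cells from 5.83, 8.52, 4.02 and 5.56 CPM to 79.5, 30.5 and 68.3 CPM. The whole tumors stood at 87 to 102 CPM with vehicle and at 134, 170, 116 and 165 CPM with ATOR-4066, and the interaction was 2.66 ± 0.38 (adjusted p = 0.00133).

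Large positive interactions were found for genes near 0 in sorted vehicle cells. Esm1, a proteoglycan of activated endothelium, was at 0 to 0.492 CPM in sorted vehicle cells and at 16.3, 16.7 and 1.57 CPM after ATOR-4066, with an interaction of 6.02 ± 1.27. Msc, a transcription factor of activated lymphocytes and muscle, had 5.19 ± 1.02, Ptn, a heparin-binding growth factor, 5.16 ± 1.25, and Krt8, an epithelial keratin, 5.02 ± 1.28. Each of these 4 calls ended with voom or with the left-out tumor library. The homeobox gene Vax2 was at 0 to 0.398 CPM against 4.57, 4.89 and 3.49 CPM in sorted cells and at 1.46 to 2.62 CPM in all tumor libraries, with an interaction of 4.38 ± 0.79. Ogdhl, a mitochondrial enzyme, had 0 counts in all 4 sorted vehicle libraries and was at 0.592, 0.864 and 0.225 CPM after ATOR-4066, at least 26.7-fold higher against a floor of 3 counts over the group. Scd1, a fatty acid desaturase, was called on 1 library, sorted ATOR-4066 9 with 98 CPM, while the vehicle libraries had 2.96 to 5.68 CPM and the remaining ATOR-4066 libraries 3.95 and 3.24 CPM. Without it the interaction was 0.91 and not called.

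Fibroblast and matrix genes had negative interactions. Of 21 fibroblast and matrix genes, 7 had a negative called interaction and none a positive one (median -2.19). That was 33.3%, where 14.8% of all genes were called. In sorted cells 13 fell and 2 rose (median -2.39), and in tumor 1 fell (median -0.16). Their level was 3.34, 1.37, 2.93 and 2.86 in sorted vehicle cells and 1.88, 0.13 and 0.98 in sorted ATOR-4066 cells, where library 6 lay within the vehicle range. The summed CPM of the list had the other order, 836, 508, 610 and 516 with vehicle and 1250, 1920 and 840 with ATOR-4066, without overlap. The 2 members that rose were Lum, the proteoglycan lumican, by 1.97 on the log2 scale and Thy1, also a T cell antigen, by 1.86. In tumor the summed CPM was 16900 to 22800 with vehicle and 8000 to 14700 with ATOR-4066. When sorted libraries were fitted alone, 1 of the 13 lower calls was made, and with pan-leukocyte scaling 1 interaction was called. There were 4 interaction calls without sorted vehicle 9 or tumor vehicle 5, 3 with the left-out tumor library, 2 without the low-count filter, and 11 without sorted vehicle 7.

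Dcn, the matrix proteoglycan decorin (ENSMUSG00000019929, chromosome 10, 97479609 to 97518143), was at 7.93, 1.46, 5.55 and 6.14 CPM in sorted vehicle cells and at 1.51, 0.594 and 0.923 CPM after ATOR-4066. The whole tumors had it at 676, 662, 554 and 654 CPM against 773, 637, 599 and 705 CPM. Sorted ATOR-4066 6 just exceeded the lowest vehicle library, and the tumor groups overlapped. The interaction was -2.49 ± 0.54 (adjusted p = 0.0102). Fbn1, Mmp2 and Col5a2, which encode fibrillin-1, a gelatinase and a collagen chain, had interactions of -2.62 ± 0.58, -2.17 ± 0.57 and -3.35 ± 0.91. Eng, the endothelial coreceptor endoglin, which macrophages also carry, had an interaction of -1.70 ± 0.47. It was the only called member of 16 endothelial markers, 6.25% where 14.8% of all genes were called. The median of these markers was -1.43, or -1.09 with genes at 0 counts set to their bound. Eng lost its call in 7 of 23 alternatives, among them without sorted vehicle 6, tumor ATOR-4066 2 or 4, or tumor vehicle 5.

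P2rx3, an ATP-gated ion channel, had 0 counts in all 3 sorted ATOR-4066 libraries and was at 0.632, 0.8, 0.484 and 0.836 CPM in sorted vehicle cells, at least 25.7-fold lower against the floor of 3 counts over the group. In tumor it was at 7.11 to 11.2 CPM with vehicle and at 17.8, 7.41, 15.9 and 19 CPM with ATOR-4066. Cacna2d1, a calcium channel subunit, was at 0.585 to 1.73 CPM in sorted vehicle cells and at 0 counts after ATOR-4066, at least 40.6-fold lower, and it also fell in tumor, from 65.1 to 75.5 CPM to 40.1, 23.9, 26.8 and 38.5 CPM. Hoxd13, a homeobox gene, had 0 counts in all 3 sorted ATOR-4066 libraries and was at 0.234, 0.209, 1.04 and 0 CPM with vehicle, so that the groups overlapped. By the same floor it was at least 14.9-fold lower, a bound that rests mostly on sorted vehicle 9, and its call ended without sorted ATOR-4066 6 or 9 or tumor vehicle 4. Psg21, a pregnancy-specific glycoprotein, was at 0.382 to 1.81 CPM in sorted vehicle cells and had 3 counts in all in sorted ATOR-4066 cells, all from library 10. These 4 genes were higher in tumor than in sorted cells in the CD40 mAb libraries. The part of fibroblast and matrix genes, whose mean log2 levels in the same sorted libraries were 0.13 to 1.88 against 1.37 to 3.34, was not tested.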

How the data were processed

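RNA was sequenced from 52 mouse libraries, of which 15 enter the contrast. The deposited values are estimated counts per gene merged by salmon, per the name of the deposited table, not scaled for depth or length. Per the submitters' processing notes, STAR (version given as 5.1) and GRCm38 were used, and per the labels' protocols the kit was stranded. The quantification settings and annotation could not be read from these sources. Reads of near-identical genes may be split between copies.

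Counts were rounded, and genes were kept by filterByExpr (count minimum 10, total 15). After TMM scaling, edgeR 4.0.16 (R 4.3.3) fitted 4 groups together, with robust quasi-likelihood F tests for the interaction and both effects and Benjamini-Hochberg adjustment over all genes. Errors are standard errors of log2 changes. In simulated counts, 33% of genes with a log2 interaction of 1 and 82% with 2 were recovered, and 10 unchanged genes of 19108 run were called. The changed genes all had an average log2-CPM above 3, and no outlying library or shift in scaling was simulated. These rates therefore do not cover genes of lower level or the dependence on libraries and scaling. Coordinates are from GENCODE vM21. Levels of gene lists are means of log2(CPM + 0.5). Alternatives were RLE scaling, DESeq2 1.42.0, voom (limma 3.58.1), no filter, other libraries in the fit, pan-leukocyte scaling, a replicate block, single materials and each library left out. The gene lists, members and tests were chosen with earlier results of these data known. The genes named are a part of those selected by a rule: the largest called interactions in each direction, the 4 members of each list with the smallest interaction p, the largest effects called in both materials, and Ptprc, Ly6g, Cd40, Cd3e and Cd8a. Where a group had 0 counts, the fold was bounded with a floor of 3 counts over the group, which covers counting error only.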

Additional observations from a re-analysis of the deposited data

Results flagged for a closer look

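For 54 named genes the ATOR-4066 effect differed between sorted cells and whole tumor by the interaction test of edgeR at an adjusted p under 0.05. The log2 interaction was positive for Mki67 3.08, Rrm2 3.46, Cenpf 3.10, Kif11 3.36, Plk1 3.24, Cdc20 2.82, Pclaf 3.91, Mmp9 2.83, Cxcl1 3.20, Egr1 1.99, Egr3 1.81, Nfkbia 0.77, Tnfaip3 1.46, Il1r1 4.12, Esm1 6.02, Msc 5.19, Ptn 5.16, Krt8 5.02, Vax2 4.38, Scd1 4.19 and Sdc1 2.66. It was negative for Stat2 -2.12, Mx1 -3.21, Mx2 -2.53, Oas3 -1.91, Gbp5 -1.94, Trem2 -2.19, C1qa -1.98, C1qb -1.97, Mertk -1.76, Irf8 -1.41, Cox6a2 -3.09, Tcf4 -0.98, Siglech -2.15, Cd40 -2.02, Cd86 -1.37, Clec4e -3.37, Trem1 -2.60, Acod1 -2.62, Il1rn -2.63, Atf3 -1.96, Hspa1a -3.32, Nfkbib -0.56, Havcr2 -1.14, Dcn -2.49, Fbn1 -2.62, Mmp2 -2.17, Col5a2 -3.35 and Eng -1.70. For 5 of the 54 genes a group had 0 to 3 counts, so that the fitted log2 value depends on the prior count and is no measure of size. These were P2rx3 -8.81, Cacna2d1 -7.58, Hoxd13 -7.10, Psg21 -6.84 and Ogdhl 7.20.

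Single libraries stood apart within their group of 4 by Dixon's test, in 5 of 90 groups of list levels and 15 of 207 groups of named genes, where chance gives about 1 in 20. Among lists, on the log2(CPM + 0.5) scale, these were B cell markers in tumor vehicle 1 (4.03), platelet markers in tumor vehicle 5 (0.97), fibroblast and matrix genes in tumor vehicle 4 (8.12), endothelial markers in tumor ATOR-4066 1 (2.85) and NF-kappaB genes in sorted vehicle 9 (6.97). Tumor ATOR-4066 4 had the high value for Stat2 at 554 CPM, Mx1 at 308 CPM, Mx2 at 59.4 CPM, Oas3 at 363 CPM, Cd40 at 146 CPM and Gzma at 86.1 CPM. In the other tumor ATOR-4066 libraries Mmp9 stood apart in library 2 at 279 CPM and Atf3 in library 5 at 49.8 CPM. Tumor vehicle 2 stood apart for Hspa1a at 5.92 CPM, Ptn at 2.2 CPM and Vax2 at 1.84 CPM, and tumor vehicle 5 for Cxcl1 at 3.17 CPM. Sorted vehicle 10 stood apart for Tcf4 at 109 CPM and Kcnj10 at 23.9 CPM, and sorted vehicle 7 for Cx3cr1 at 310 CPM.

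The tumor ATOR-4066 library outside the contrast had B cell markers at 8.24, above the vehicle range of 1.01 to 4.02.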

How the results depend on the processing

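Of 54 named interactions that were called, 17 were called in each of 23 alternatives, and none changed sign. In all, 1017 of these recomputed interactions stayed called and 225 did not. With DESeq2 there were 4386 interaction calls, 2370 of them negative, 3315 calls in tumor (1791 higher, 1524 lower), 644 genes called in both materials in the same direction and 502 in opposite directions. With voom there were 2114 calls in sorted cells (1059 higher, 1055 lower) and 4306 in tumor (2147 and 2159). Without the low-count filter there were 890 negative interactions, 228 genes called in the same direction and 146 in opposite directions. With tumor ATOR-4066 3 included there were 1499 interaction calls (745 positive, 754 negative), 2207 in sorted cells (1059 and 1148), 1178 in tumor (712 and 466), 177 in the same direction and 80 in opposite directions. With the CD40 mAb libraries in the fit there were 1778 (891 and 887), 1276 higher in sorted cells, 543 in tumor (353 and 190), 73 in the same direction and 27 in opposite directions. Scaled on pan-leukocyte genes there were 539 (334 and 205), 2208 in sorted cells (594 higher), 742 in tumor (187 higher), 123 in the same direction and 41 in opposite directions. Fitted alone, sorted cells gave 1776 calls (1041 and 735) and tumor 3959 (2058 and 1901). With a compartment ratio of 2 on the log2 scale, 0.709% of genes higher in sorted cells had positive interactions. Apart from fits with other libraries or fewer genes, the cause was not tested.

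Leaving out 1 library gave 1713 to 4115 interaction calls (904 to 1839 positive, 795 to 2276 negative). It gave 2424 to 4458 calls in sorted cells (1181 to 2241 higher, 1243 to 2217 lower) and 757 to 2666 in tumor (440 to 1588 higher, 317 to 1078 lower). It gave 154 to 399 genes in the same direction and 66 to 448 in opposite directions. The lowest interaction, tumor, same-direction and opposite-direction counts came without tumor vehicle 4, and the lowest sorted counts without sorted ATOR-4066 9.

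The replicate numbers were shared between groups, and whether they pair the libraries cannot be decided from so few correlations. Correlations of same-numbered libraries were 0.12, -0.08 and 0.04 in sorted cells and -0.30, 0.03, -0.22 and 0.30 in tumor. Those of differently numbered libraries were -0.19 to 0.13 in sorted cells and -0.28 to 0.33 in tumor. With the replicate number as a block there were 2301 interaction calls, which held 67.9% of the calls of the main fit, and 758 genes higher in tumor.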

Other observations

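Of 18 genes of hypoxia and glycolysis, measured by 19 identifiers since Aldoa has 2, 8 identifiers were called higher in whole tumor and 1 in sorted cells. Among all genes 6.02% were called higher in tumor and 9.92% in sorted cells. The median log2 change of the list was 0.99 in tumor and 0.65 in sorted cells, and the change was above 0 for all 19 and for 17. The median interaction was -0.24, with 1 negative call (5.26%, where 14.8% of all genes were called). A difference between the materials was thus not shown for the list. Monocyte markers had a median interaction of -1.38 with 1 of 13 called (7.69%, where 14.8% of all genes were called). They had a median change of -1.04 in sorted cells and of 1.01 in tumor. Without tumor ATOR-4066 4 their median was 0.01 in tumor and -0.82 for the interaction, and none was called. Regulatory T cell markers had a median interaction of 0.27, between -0.05 and 0.66 when 1 library was left out. For cytotoxic effector genes it was -0.03, between -0.37 and 0.48, with 3 of 18 higher in sorted cells and 2 in tumor.

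The 12 genes of MHC class I presentation had a median interaction of -0.40, and the 12 of MHC class II presentation of -0.68. Each list had 1 negative call, 8.33% where 14.8% of all genes were called. The 5 platelet markers tested had a median change of 2.15 in tumor and of 0.41 in sorted cells. Tumor epithelial markers had a median interaction of -0.27 with 1 call in each direction (14.3%). That median was -0.07 with genes at 0 counts set to their bound, and 0.20 without tumor ATOR-4066 4. Plasma cell genes had a median of 0.41 and 1 positive call (11.1%). Their median was -0.67 without tumor vehicle 1, -2.34 with the left-out tumor library and -0.54 with the replicate number as a block. Genes of skeletal muscle, skin and fat had a median of 0.45, which was -0.58 without tumor vehicle 4 and -0.15 without sorted ATOR-4066 6. Those of eosinophils, basophils and mast cells had a median of 0.44, between 0.07 without sorted vehicle 9 and 1.69 without sorted vehicle 7. In these 2 lists edgeR called no interaction. At an unadjusted p under 0.05 there were 1 and 0, DESeq2 called 1 and 0, and voom 0 and 1.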
